A study of Mus musculus with 16 samples.

Results

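The macrophage identity program was followed here through 9 genes: the transcription factor genes Spi1, Cebpa, Cebpb, Cebpd, Maf, Irf5 and Irf8, the growth factor receptor gene Csf1r, and Adgre1, which encodes the surface marker F4/80. They were chosen by name, make up 9 of the 54532 gene identifiers in the files, and 9 of 9 had enough signal to be tested (1 FPKM or more in at least 4 libraries). RNA had been sequenced from 16 libraries of bone marrow-derived macrophages of FVB/N mice, either wild type or FOXO3-/-. Marrow was grown with L929-conditioned medium, a source of CSF1, in every group, and the cells then received DMSO (vehicle) or 100 nM dexamethasone, a synthetic glucocorticoid, for 24 h. This gave 4 groups of 4 libraries: wild type with vehicle, wild type with dexamethasone, FOXO3-/- with vehicle and FOXO3-/- with dexamethasone. The labels give neither the age of the mice, nor the exons deleted, nor whether the 4 libraries of a group came from separate mice, so the p-values reflect only how far these libraries vary among themselves, which may be technical variation. The title of the series puts its question as the effect of FOXO3 on signalling by the glucocorticoid receptor.

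Macrophages are specified by a small set of DNA-binding proteins that act together. PU.1, encoded by Spi1, opens the regulatory regions of myeloid genes and is joined there by C/EBP, MAF and IRF proteins, while signalling through the CSF1 receptor keeps the cells alive and differentiated. The glucocorticoid receptor binds DNA after taking up its hormone and both raises and lowers the transcription of macrophage genes, often near sites occupied by PU.1 and C/EBP proteins.

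The deposited values are FPKM, fragments scaled by transcript length and by library depth. Reads recovered from FPKM and exon length, summed over all genes, lay between 16886746 and 20584578 per library. This sum is not the depth: in most libraries it exceeded the read total implied by the FPKM scaling. In knockout-labelled vehicle replicate 2 the sum was 20496259 and that total 16568784. Recovered reads on single members lay between 551 (Cebpd) and 95307 (Csf1r). Foxo3 itself was listed at 24.7 ± 1.72 FPKM (SD, n = 4) in wild-type and 23.8 ± 0.635 FPKM in FOXO3-/- vehicle libraries (exact permutation test, two-sided p = 0.371, smallest possible 0.0286), and at 23.2 ± 1.07 and 24.5 ± 1.44 FPKM with dexamethasone (exact p = 0.171). The total of Foxo3 thus does not check the genotype labels, since the deleted exons are not named, and the FOXO3-/- libraries are called knockout-labelled below. Fkbp5, a direct target of the glucocorticoid receptor, averaged 1.19 and 1.03 FPKM in the wild-type and knockout-labelled vehicle groups and 81.6 and 105 FPKM in the matching dexamethasone groups. A set of 10 macrophage markers, which includes Csf1r and Adgre1, summed to between 9866 and 15671 FPKM in every library. In wild type the sum was 13022 to 13946 FPKM with vehicle and 9866 to 12833 with dexamethasone. The knockout-labelled libraries had 13469 to 15671 and 13072 to 15663 FPKM. Markers of neutrophils, dendritic cells, T and NK cells, B cells, erythroid cells, mast cells and progenitors each summed to at most 4.68 FPKM. The B cell markers summed to 1.51 to 2.06 FPKM in wild-type vehicle and 2.59 to 4.52 in knockout-labelled vehicle libraries. With dexamethasone they summed to 0.766 to 1.13 FPKM in wild type and 1.91 to 3.2 in the knockout-labelled libraries. Ly6g, Flt3, Cd3e, Hbb-bs and Ms4a2 stayed under 0.1 FPKM everywhere. In wild type, 5 monocyte markers summed to 4.39 to 9.25 FPKM with vehicle and 2.57 to 6.14 with dexamethasone. The knockout-labelled libraries had 3.4 to 6.99 and 2.33 to 3.43 FPKM of them. A set of 6 osteoclast markers summed to 35.2 to 52.3 FPKM in wild type and 19.5 to 26.5 FPKM in the knockout-labelled libraries. Of them, Ocstamp, Calcr and Oscar stayed under 0.1 FPKM everywhere. The part of the B cell and osteoclast differences in the results between genotypes was not tested.

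Fibroblast and stromal markers also moved with the groups. Their sum over 10 genes ran from 29.7 to 554 FPKM in wild-type vehicle, from 67.1 to 1124 in wild-type dexamethasone, from 2.87 to 389 in knockout-labelled vehicle and from 6.47 to 93.3 in knockout-labelled dexamethasone libraries. In all, 3 of 16 libraries stood apart from their own group in Col1a1, the main fibroblast collagen. Wild-type vehicle replicate 3 had 6.77 FPKM where the others had 124 to 174, wild-type dexamethasone replicate 4 had 19.1 where the others had 159 to 356, and knockout-labelled vehicle replicate 4 had 95.8 where the others had 0.395 to 4.76. The values without these 3 libraries are given where they change a call or move a value clearly. Over libraries under 50 FPKM of Col1a1, also given, each wild-type group is 1 library, so a wild-type comparison there sets 1 library against 1 and takes its spread from the knockout-labelled groups. In bulk RNA, fewer cells of a type and less RNA per cell cannot be told apart.

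The 9 genes differed widely in level. Per length, Adgre1 and Csf1r led in each of the 4 groups, and Cebpd, at 10.6 to 19.6 FPKM on average, came last in each. In wild-type vehicle libraries the means fell from Adgre1 (615 FPKM) and Csf1r (590.1), whose replicates overlapped, to Spi1 (152) and Cebpa (136), which overlapped too. Cebpb (86.9), Irf5 (74.3) and Maf (68.3) formed an overlapping middle group, then Irf8 stood at 50.5 and Cebpd at 11.9. Dexamethasone put Csf1r above Adgre1 in wild type without overlap (662 to 793 against 209.7 to 472 FPKM). In knockout-labelled vehicle libraries Adgre1 (1189 to 1503 FPKM) lay above Csf1r (516 to 757). With dexamethasone Csf1r had the higher mean there too (756 against 705 FPKM), but the replicates overlapped.

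**Figure D1:**
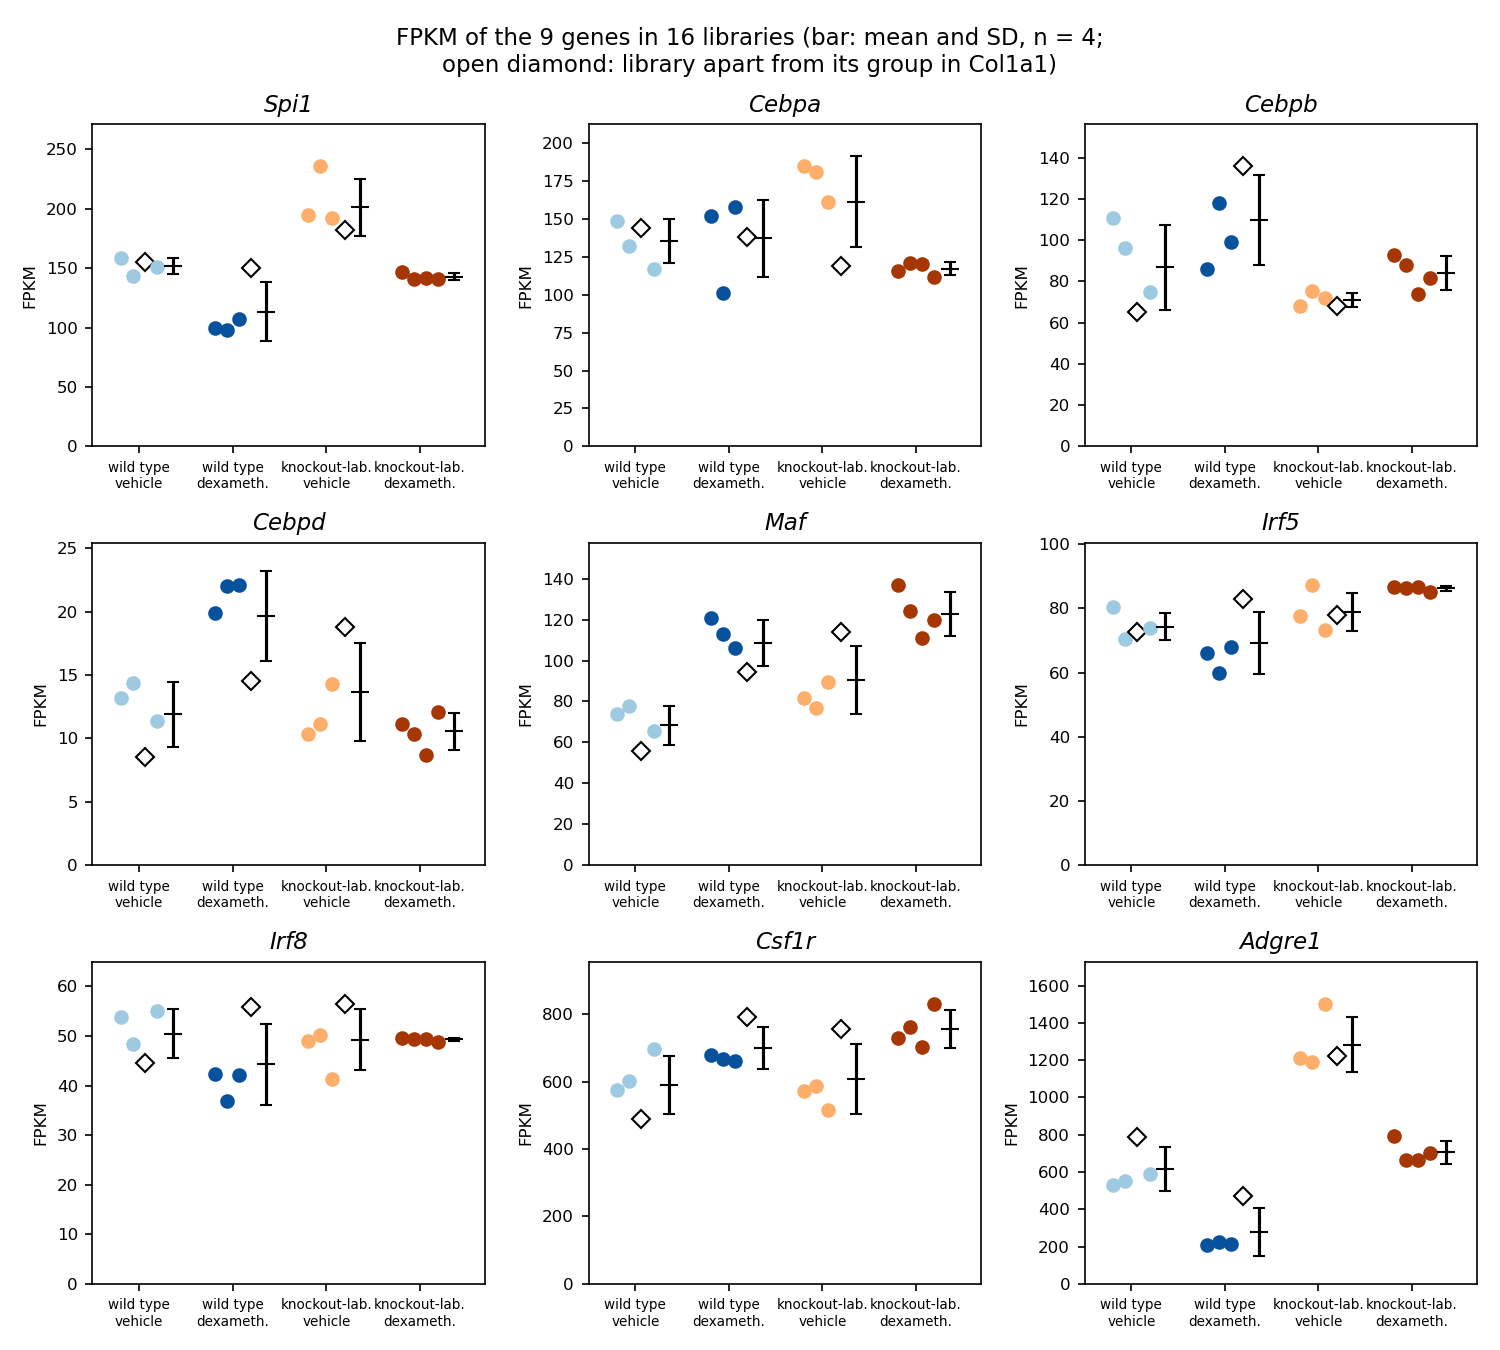
FPKM (vertical axes, from 0) of each of the 9 genes in the 4 groups on the horizontal axis, 1 point per library, with the mean and SD of 4 libraries beside the points; open diamonds are the 3 libraries that lay apart in Col1a1. Adgre1 lay at 209.7 to 472 FPKM in wild-type dexamethasone and at 1189 to 1503 FPKM in knockout-labelled vehicle libraries, and Irf8 kept within 36.8 to 56.5 FPKM throughout.

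Spi1 (chr2:91082390-91115756, GRCm38, plus strand) encodes PU.1, the ETS-family factor without which macrophages do not form, and its RNA was lower with dexamethasone in both genotypes. The wild-type vehicle libraries held 159, 143, 155 and 151 FPKM (replicates 1 to 4) and the wild-type dexamethasone libraries 99.4, 97.5, 107 and 150.1. The first 3 treated libraries lay well under every untreated one, while replicate 4, the one low in Col1a1, lay among the untreated. Spi1 fell by 0.44 on the log2(FPKM + 1) scale (SE 0.12, limma adjusted p = 0.0103). Without that library the difference was -0.58 (limma adjusted p = 9.01e-05), in a fit of the wild-type libraries alone -0.44 (limma adjusted p = 0.0525), and over libraries with under 50 FPKM of Col1a1, -0.04 (limma adjusted p = 0.869).

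Knockout-labelled vehicle libraries held 195, 236, 192 and 182 FPKM of Spi1 and the dexamethasone libraries 147, 141, 142 and 141. The groups did not overlap, and the treated libraries were tightly placed. The fall was 0.48 (SE 0.12, limma adjusted p = 0.00412), and the difference was -0.53 both without the 3 libraries apart and below 50 FPKM of Col1a1 (limma adjusted p = 7.19e-05 and 0.00103). Quantile normalization, which forces one distribution on all libraries, gave -0.21 (limma adjusted p = 0.0868).

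Between genotypes, every knockout-labelled vehicle library exceeded every wild-type one in Spi1, yet the difference of 0.40 ± 0.12 (SE, as after ± for every difference below) missed the threshold over all genes (limma adjusted p = 0.0658). It passed when wild-type dexamethasone replicate 4 or knockout-labelled vehicle replicate 4 was left out (limma adjusted p = 0.005 and 0.0389). Without the 3 libraries apart it was 0.45 (limma adjusted p = 0.00069). With the mean stromal marker level as a covariate it was 0.23 (limma adjusted p = 0.335). Over libraries under 50 FPKM of Col1a1 it was 0.41, with 1 wild-type library. After dexamethasone Spi1 was higher in the knockout-labelled libraries by 0.35 ± 0.12 (limma adjusted p = 0.0388), with wild-type replicate 4 above all 4 of them. That call was lost without any 1 of the other 3 wild-type dexamethasone libraries or any 1 of the 4 knockout-labelled ones (limma adjusted p = 0.0631 to 0.122). With the mean stromal marker level as a covariate the difference was 0.15 (limma adjusted p = 0.528), without the 3 libraries apart 0.49 (limma adjusted p = 0.000153), and over libraries under 50 FPKM of Col1a1 it was -0.07 (limma adjusted p = 0.78).

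The C/EBP proteins bind DNA as dimers through a basic region beside a leucine zipper, and this is where their genes are most alike. The stretch of 25 codons with the most bases in common among Cebpa, Cebpb and Cebpd is shown so that the likeness of these relatives can be read beside their values. Capitals mark the 60 of 75 bases that all 3 share (GENCODE M21 transcripts, GRCm38, all on the plus strand and inside the single coding exon: Cebpa at chr7:35120283-35120357, Cebpb at chr2:167689703-167689777 and Cebpd at chr16:15887913-15887987).
Cebpa: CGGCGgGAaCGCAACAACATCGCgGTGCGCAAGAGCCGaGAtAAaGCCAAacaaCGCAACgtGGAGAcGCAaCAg
Cebpb: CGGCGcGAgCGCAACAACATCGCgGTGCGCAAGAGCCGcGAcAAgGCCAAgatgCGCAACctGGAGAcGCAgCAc
Cebpd: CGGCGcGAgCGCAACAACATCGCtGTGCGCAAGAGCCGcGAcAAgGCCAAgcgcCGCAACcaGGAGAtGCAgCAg
Cebpb and Cebpd shared 68 of these bases, Cebpa and Cebpb 63, and Cebpa and Cebpd 62. The longest unbroken run that any 2 of these coding sequences have in common was 29 bases (Cebpa and Cebpb).

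Cebpa, needed for the commitment of progenitors to the myeloid lineage, was lower with dexamethasone in the knockout-labelled libraries. Its vehicle values there were 185, 181, 161 and 119 FPKM and its dexamethasone values 116, 121, 120.3 and 112. Untreated replicates 1 to 3 stood high, and replicate 4 overlapped the treated ones. Cebpa fell by 0.44 (SE 0.15, limma adjusted p = 0.0301). The call was lost in 10 of 28 other settings, among them the omission of any 1 of knockout-labelled vehicle replicates 1 to 3 or of any 1 knockout-labelled dexamethasone library (limma adjusted p = 0.0507 to 0.092). After quantile normalization it was -0.17 (limma adjusted p = 0.285), and with voom on recovered reads -0.27 (limma adjusted p = 0.0959), but it was -0.58 without the 3 libraries apart (limma adjusted p = 0.00363). Wild-type libraries held 149, 132, 144 and 117 FPKM with vehicle and 152, 101, 158 and 138 with dexamethasone. These overlapped throughout, and the 95% interval of the difference ran from -0.32 to 0.32. The responses of the genotypes differed by -0.44 ± 0.21, which did not pass (limma adjusted p = 0.441; with library weights, -0.70 and 0.00924). Between genotypes with vehicle the difference was 0.23 (limma adjusted p = 0.367), and 0.40 without the 3 libraries apart (limma adjusted p = 0.0453).

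Cebpb, which drives inflammatory and acute-phase genes, gave no call in the 5 comparisons. Wild-type values were 111, 96.3, 65.2 and 75.1 FPKM with vehicle and 86.0, 118, 99.1 and 136 with dexamethasone, and knockout-labelled values were 68.2, 75.3, 72.2 and 68.0 against 92.7, 88.2, 73.7 and 81.9. The treated groups had the higher means in both genotypes, with overlap in each. The differences were 0.34 ± 0.16 in wild type (limma adjusted p = 0.115) and 0.24 ± 0.16 in the knockout-labelled libraries (limma adjusted p = 0.25). Wild type passed without vehicle replicate 1 (0.47, limma adjusted p = 0.0343) or without dexamethasone replicate 1 (0.45, limma adjusted p = 0.0493) and after quantile normalization (0.51, limma adjusted p = 0.0261). Without the 3 libraries apart it was 0.11 (limma adjusted p = 0.592), and below 50 FPKM of Col1a1, 1 library against 1, it was 1.05 (limma adjusted p = 0.00372). The knockout-labelled difference passed in a fit of those 8 libraries alone (limma adjusted p = 0.0406). Between genotypes Cebpb differed by -0.26 with vehicle (limma adjusted p = 0.34) and by -0.37 with dexamethasone (limma adjusted p = 0.0962). The latter was -0.26 without the 3 libraries apart (limma adjusted p = 0.134) and -0.69 below 50 FPKM of Col1a1 (limma adjusted p = 0.0279).

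Cebpd, often induced early by glucocorticoids and cytokines, rose with dexamethasone in wild type. The values were 13.2, 14.4, 8.52 and 11.4 FPKM with vehicle and 19.9, 22.0, 22.1 and 14.5 with dexamethasone. The groups did not overlap, but replicate 4 of the treated libraries exceeded the highest untreated one only slightly. Cebpd rose by 0.68 ± 0.19 (limma adjusted p = 0.0136), and the difference was 0.70 below 50 FPKM of Col1a1 (limma adjusted p = 0.0848). Knockout-labelled libraries held 10.3, 11.1, 14.3 and 18.8 FPKM with vehicle and 11.1, 10.3, 8.66 and 12.1 with dexamethasone. Here the groups overlapped, and the high untreated value was replicate 4, the one high in Col1a1. The difference was -0.31 ± 0.19 (limma adjusted p = 0.211), and -0.16 without the 3 libraries apart (limma adjusted p = 0.313). Between genotypes with vehicle Cebpd differed by 0.17 ± 0.19 (limma adjusted p = 0.625), and by -0.12 without the 3 libraries apart (limma adjusted p = 0.493). With the mean stromal marker level as a covariate that genotype difference was 0.49 (limma adjusted p = 0.13).

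After dexamethasone, Cebpd was lower in every knockout-labelled library than in any wild-type one. The difference was -0.83 ± 0.19 (limma adjusted p = 0.00775). With the stromal covariate it was -0.43 (limma adjusted p = 0.149), and below 50 FPKM of Col1a1 it was also -0.43 (limma adjusted p = 0.268), while without the 3 libraries apart it was -0.96 (limma adjusted p = 3.76e-05). The responses of the genotypes differed by -1.0 ± 0.27, the largest such value among the 9 genes, and did not pass (limma adjusted p = 0.173). That interaction passed in 4 of 27 other settings: without wild-type dexamethasone replicate 4 (-1.13, limma adjusted p = 0.0327), without the 3 libraries apart (-0.83, limma adjusted p = 0.016), with the stromal covariate (-0.91, limma adjusted p = 0.0388) and with library weights (-0.78, limma adjusted p = 0.0166).

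Maf (chr8:115682942-115707794, minus strand) encodes c-MAF, a basic leucine zipper factor of resident and interleukin-10-producing macrophages, and it rose with dexamethasone in both genotypes. Wild-type values went from 73.9, 77.7, 56.0 and 65.5 FPKM to 121, 113, 106 and 94.2. No treated library overlapped an untreated one. Maf rose by 0.67 ± 0.13 in wild type (limma adjusted p = 0.00125). Knockout-labelled values were 81.7, 76.7, 89.5 and 114 FPKM with vehicle and 137, 124, 111 and 119.7 with dexamethasone, so that only untreated replicate 4 reached into the treated range. The rise there was 0.45 ± 0.13 (limma adjusted p = 0.0117). Both calls held in 28 of 28 other settings. Between genotypes Maf did not pass, at 0.40 ± 0.13 with vehicle (limma adjusted p = 0.0901) and 0.18 ± 0.13 with dexamethasone (limma adjusted p = 0.305); the former was 0.59 with the stromal covariate (limma adjusted p = 0.0111) and 0.19 without the 3 libraries apart (limma adjusted p = 0.126).

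Irf5 (chr6:29526625-29541871, plus strand), a driver of inflammatory polarization, passed in neither treatment comparison. Wild-type libraries held 80.3, 70.3, 72.5 and 74.0 FPKM with vehicle and 66.0, 60.0, 68.1 and 82.8 with dexamethasone, and knockout-labelled libraries 77.6, 87.3, 73.2 and 77.8 against 86.6, 86.3, 86.8 and 85.1. Treated wild-type replicate 4 was the highest wild-type library, and the 4 treated knockout-labelled libraries were nearly equal. Dexamethasone differed from vehicle by -0.11 ± 0.084 in wild type (limma adjusted p = 0.362). Without treated replicate 4 this was -0.20 (limma adjusted p = 0.0386), and without the 3 libraries apart -0.21 (limma adjusted p = 0.0463). After quantile normalization it was 0.01 (limma adjusted p = 0.891), and below 50 FPKM of Col1a1, 1 library against 1, it was 0.19. The difference was 0.13 ± 0.084 in the knockout-labelled libraries (limma adjusted p = 0.25). There it was 0.31 after quantile normalization (limma adjusted p = 0.00085) and 0.30 with voom on recovered reads (limma adjusted p = 0.00279). After dexamethasone Irf5 was higher in every knockout-labelled library than in any wild-type one, by 0.32 ± 0.084 (limma adjusted p = 0.0143). With the stromal covariate this was 0.24 (limma adjusted p = 0.171), and below 50 FPKM of Col1a1, where the wild-type side is replicate 4 alone, 0.06 (limma adjusted p = 0.795); without the 3 libraries apart it was 0.41 (limma adjusted p = 0.000401).

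Irf8 (chr8:120736358-120756694, plus strand), required for monocytes and for some dendritic cells, passed in none of the 5 comparisons. Its wild-type values were 53.9, 48.4, 44.5 and 55.1 FPKM with vehicle and 42.4, 36.8, 42.1 and 55.9 with dexamethasone, and its knockout-labelled values 49.0, 50.1, 41.4 and 56.5 against 49.6, 49.4, 49.4 and 48.8. Every pair of groups overlapped. In wild type the difference was -0.20 (95% interval -0.44 to 0.05, limma adjusted p = 0.223), and without treated replicate 4 it was -0.31 (limma adjusted p = 0.0253). Without the 3 libraries apart it was -0.37 (limma adjusted p = 0.00357). Below 50 FPKM of Col1a1, 1 library against 1, it was 0.32. In the knockout-labelled libraries it was 0.01 (95% interval -0.24 to 0.25). Between genotypes with dexamethasone it was 0.17 ± 0.11 (limma adjusted p = 0.289), and without wild-type replicate 4 it was 0.28 (limma adjusted p = 0.0357). Without the 3 libraries apart it was also 0.28 (limma adjusted p = 0.00886). Below 50 FPKM of Col1a1, with 1 wild-type library, it was -0.18. The responses of the genotypes differed by 0.20 (limma adjusted p = 0.652), and by 0.45 without the 3 libraries apart (limma adjusted p = 0.0323). Below 50 FPKM of Col1a1 they differed by -0.25.

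Csf1r, the tyrosine kinase receptor for CSF1 and interleukin-34, was abundant in all libraries. Wild-type values were 574, 601, 488 and 698 FPKM with vehicle and 678, 668, 662 and 793 with dexamethasone. Treated replicate 4 was the highest, and untreated replicate 4 reached above the other treated libraries. The difference was 0.25 (95% interval -0.01 to 0.52, limma adjusted p = 0.136). It was 0.48 after quantile normalization (limma adjusted p = 0.0198), 0.11 without the 3 libraries apart (limma adjusted p = 0.376), and 0.70 below 50 FPKM of Col1a1, 1 library against 1 (limma adjusted p = 0.0167). Knockout-labelled libraries held 572, 587, 516 and 757 FPKM with vehicle and 728, 761, 702 and 831 with dexamethasone, again with untreated replicate 4 inside the treated range. Csf1r rose there by 0.33 ± 0.12 (limma adjusted p = 0.0473). This call was lost without 12 of the 16 libraries, each left out alone (limma adjusted p = 0.0543 to 0.136): all but wild-type vehicle replicates 3 and 4, wild-type dexamethasone replicate 4 and knockout-labelled vehicle replicate 4. It held without the 3 libraries apart (0.44, limma adjusted p = 0.000728). Between genotypes Csf1r differed by 0.04 with vehicle (95% interval -0.22 to 0.30) and by 0.11 with dexamethasone (95% interval -0.15 to 0.37), neither of which passed. Without the 3 libraries apart these were -0.16 and 0.17 (limma adjusted p = 0.178 and 0.102). After quantile normalization they were -0.12 and -0.04 (limma adjusted p = 0.65 and 0.858). Below 50 FPKM of Col1a1, with 1 wild-type library in each, they were 0.19 and -0.07.

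Adgre1 (chr17:57358691-57483527, plus strand) encodes F4/80, an adhesion G protein-coupled receptor used to mark mouse macrophages, and it had the largest difference of the 9 genes in each treatment and each genotype comparison. The wild-type vehicle libraries held 529, 554, 788 and 591 FPKM and the dexamethasone libraries 209.7, 224, 213 and 472. The high value in each of these groups belonged to the library low in Col1a1, and the groups did not overlap. Adgre1 fell by 1.21 (SE 0.21, limma adjusted p = 0.000679), to a mean of 0.454 times the vehicle mean. Knockout-labelled libraries held 1212, 1189, 1503 and 1225 FPKM with vehicle and 792, 664, 662 and 704 with dexamethasone, again without overlap. The fall there was 0.86 (SE 0.21, limma adjusted p = 0.00547), to 0.55 times the vehicle mean. Both falls held in 28 of 28 other settings. Below 50 FPKM of Col1a1 they were -0.74 in wild type (limma adjusted p = 0.0367) and -0.88 in the knockout-labelled libraries (limma adjusted p = 0.000367). The responses of the genotypes differed by 0.35 ± 0.30, which did not pass (limma adjusted p = 0.681), by 0.49 without the 3 libraries apart (limma adjusted p = 0.0479) and by -0.14 below 50 FPKM of Col1a1 (limma adjusted p = 0.811).

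In each treatment every knockout-labelled library exceeded every wild-type one in Adgre1. The difference was 1.07 ± 0.21 with vehicle (limma adjusted p = 0.0101, means 2.08 times apart) and 1.42 ± 0.21 with dexamethasone (limma adjusted p = 0.00058, means 2.52 times apart). With the stromal covariate the differences were 0.72 and 0.98 (limma adjusted p = 0.0458 and 0.00735). Below 50 FPKM of Col1a1 each wild-type group is 1 library, assumed to vary like the others; Adgre1 then stood at 788 FPKM in wild type against 1189 to 1503 with vehicle, and at 472 against 662 to 792 with dexamethasone. Those differences were 0.72 and 0.58 and did not pass (limma adjusted p = 0.134 and 0.0934). Without the 3 libraries apart they were 1.21 and 1.70 (limma adjusted p = 2.86e-06 and 6.57e-08).

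**Figure D2:**
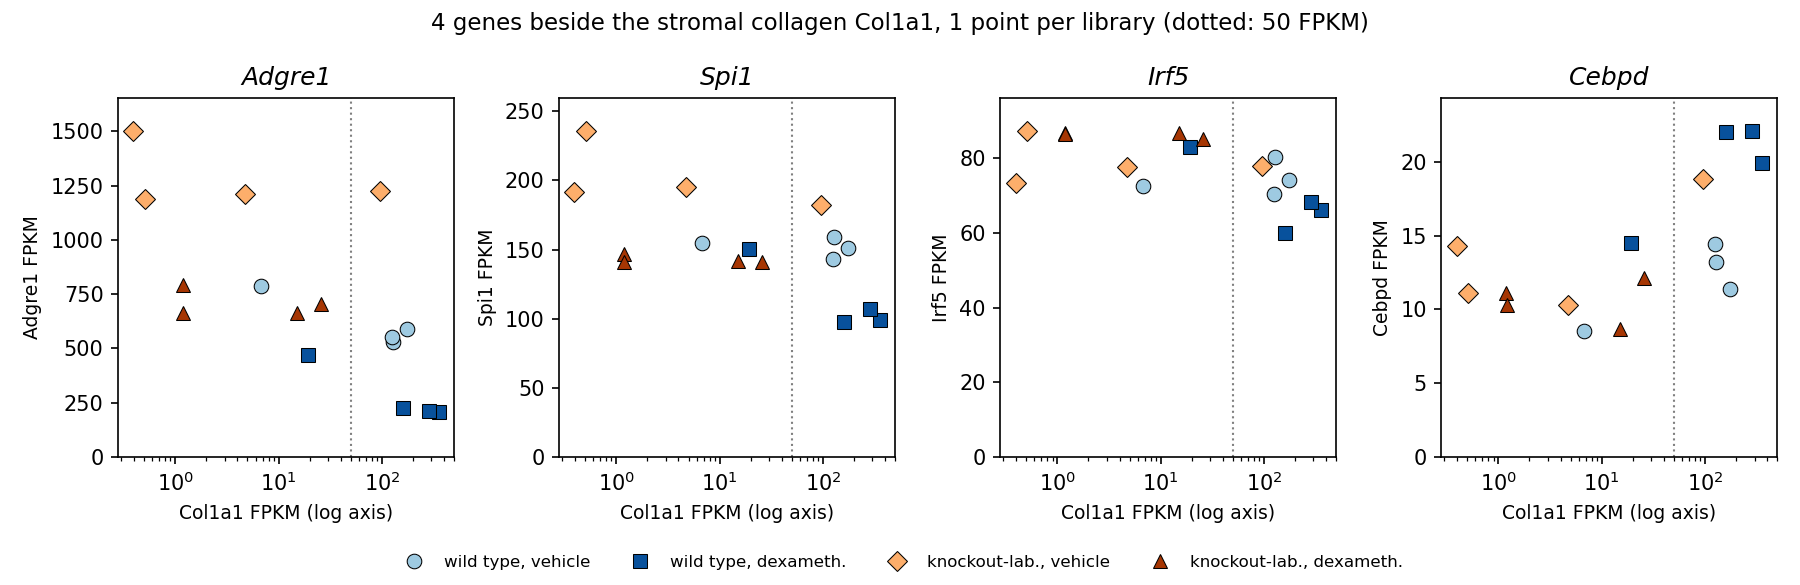
FPKM of Adgre1, Spi1, Irf5 and Cebpd (vertical axes, from 0) against FPKM of the stromal collagen Col1a1 (horizontal log axis), 1 point per library and 1 symbol per group, with a dotted line at 50 FPKM of Col1a1. The wild-type libraries left of the line (6.77 and 19.1 FPKM of Col1a1) have 788 and 472 FPKM of Adgre1, above the other wild-type libraries of their treatment and below the knockout-labelled ones.

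Set against all 11654 genes tested, the members moved in both directions. With dexamethasone in wild type 2 of 9 members were higher (Cebpd and Maf) and 2 lower (Spi1 and Adgre1), where 11.9% of all genes were higher and 18.2% lower. The same treatment gave 2 higher in the knockout-labelled libraries (Maf and Csf1r) and 3 lower (Spi1, Cebpa and Adgre1), against 15.0% and 24.1% of all genes. Between genotypes with vehicle 1 of 9 was higher in the knockout-labelled libraries (Adgre1) and 0 were lower, against 3.37% and 1.3%. With dexamethasone 3 were higher (Spi1, Irf5 and Adgre1) and 1 lower (Cebpd), against 14.3% and 12.4%. The interaction gave 0 of 9 members by limma, where 0.0601% of all genes were higher and 0.0686% lower; at an unadjusted p under 0.05 it gave 1, Cebpd, where 11.7% of all genes passed, and limma voom on the recovered reads gave 0. The median difference over the members was 0.00, 0.01, 0.17, 0.17 and -0.05 in these 5 comparisons, and over all genes -0.018, -0.055, 0.042, 0.03 and -0.019.

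The comparisons share libraries: each group enters a treatment comparison and a genotype comparison, and a library that stands apart enters both. Scaling also moved the split of calls over all genes. With dexamethasone in the knockout-labelled libraries it was 1753 higher and 2809 lower, 2059 and 1968 after quantile normalization, 2238 and 2372 with median-ratio scaling, and 3280 and 1728 with voom on recovered reads, where the median of all genes was 0.118. In wild type it was 1386 and 2122, 1672 and 1868 after quantile normalization, 1743 and 1867 with median-ratio scaling, and 2005 and 1595 with voom. The genotype split with vehicle was 393 and 152, 282 and 194 with median-ratio scaling, 270 and 168 after quantile normalization and 296 and 219 with voom, and with dexamethasone it was 1672 and 1442, 1488 and 1708 with median-ratio scaling, 2073 and 1436 after quantile normalization, and 1868 and 881 with voom. Under these 3 scalings no called member difference changed sign.

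**Figure D3:**
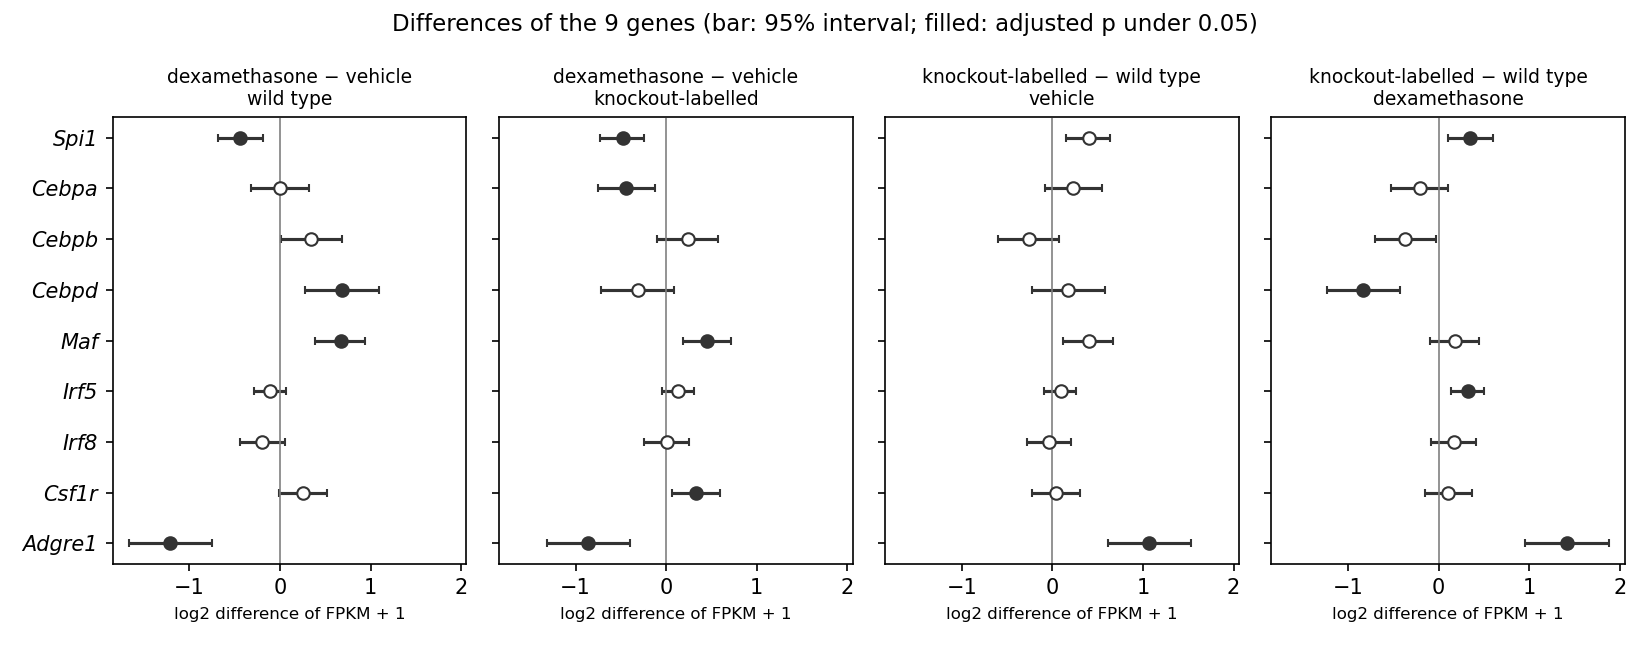
Difference in log2(FPKM + 1) (horizontal axes) for each of the 9 genes in the 4 comparisons, with 95% intervals from the moderated fit of 4 libraries a group; filled points have a limma adjusted p under 0.05. Adgre1 was lower with dexamethasone by 1.21 and 0.86, given as -1.21 and -0.86, and higher in the knockout-labelled libraries by 1.07 and 1.42, while the points of Irf8 are open in each panel.

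**Figure D4:**
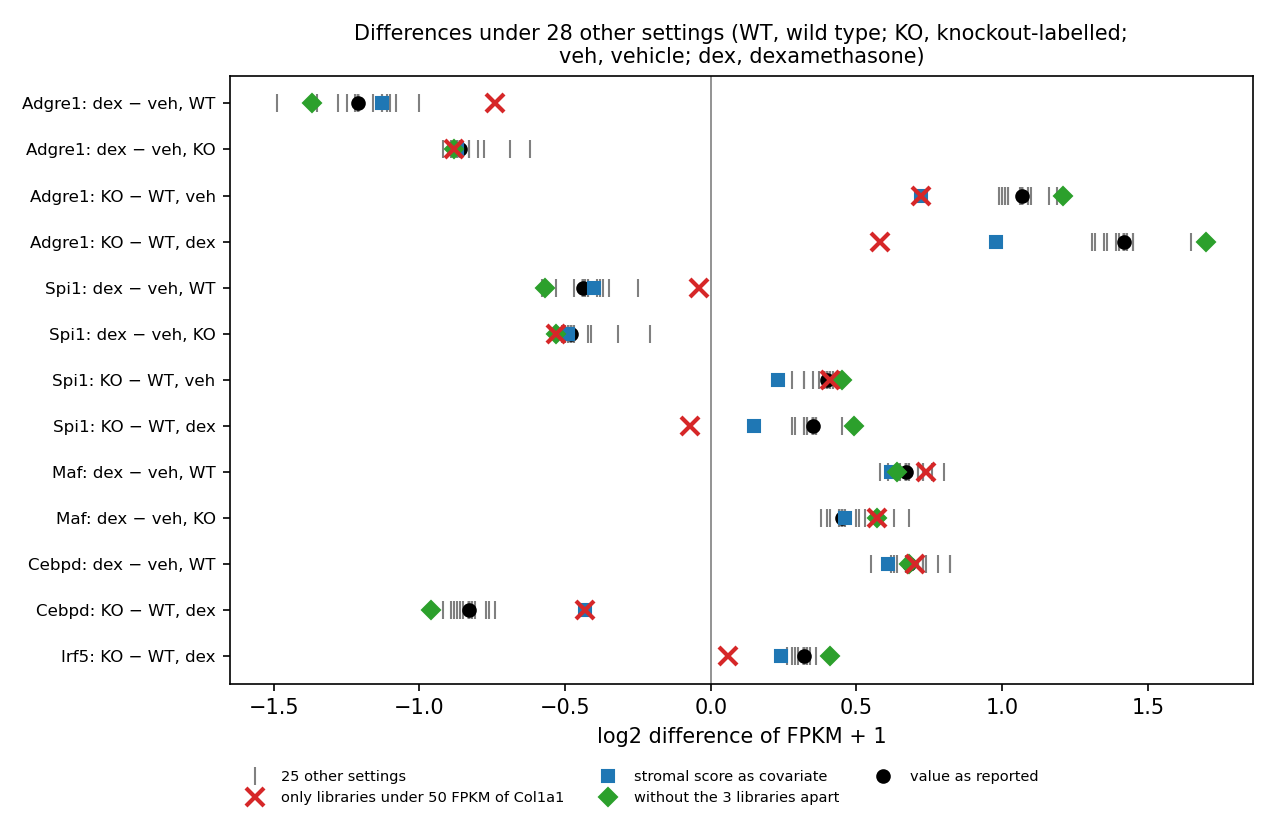
Difference in log2(FPKM + 1) (horizontal axis) for 13 results on 5 genes, as reported (black) and under 28 other settings, with the 3 settings that bear on stromal signal marked by colour and shape. For Spi1 between genotypes with dexamethasone the value as reported was 0.35 and that over libraries under 50 FPKM of Col1a1 was -0.07, while for Maf with dexamethasone every setting gave a value above 0.

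Among 23 tested of 28 other regulators of macrophage development, dexamethasone raised 3 and lowered 11 in wild type, and raised 5 and lowered 9 in the other genotype. The median of the list was -0.30 and -0.32. Egr2, an early growth response factor induced during macrophage differentiation, went down in both, in wild type from 14.0 to 1.92 FPKM and in the knockout-labelled group from 16.9 to 1.43 (limma adjusted p = 2.02e-06 and 1.87e-07). The repressor genes Bhlhe40 and Bhlhe41 also fell in both, with differences of -1.83 and -1.16 in wild type and -2.88 and -1.69 in the knockout-labelled libraries. Klf4, a factor of monocyte differentiation, rose from 4.73 to 20.2 and from 3.40 to 24.5 FPKM (limma adjusted p = 0.000397 and 2.26e-05). Runx1, which acts upstream of Spi1 in blood formation, fell by 0.42 in wild type (limma adjusted p = 0.031) and had a difference of -0.22 in the knockout-labelled libraries (limma adjusted p = 0.234). Between genotypes the list gave 1 higher and 0 lower with vehicle, where 3.37% of all genes were higher and 1.3% lower. With dexamethasone it gave 6 higher and 4 lower, against 14.3% and 12.4% of all genes. Ikzf1, the gene of the lymphoid and myeloid zinc finger factor Ikaros, was higher with either treatment (0.49 and 0.51, limma adjusted p = 0.00161 and 0.000454).

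Around the CSF1 receptor, 22 of 22 ligand and signalling genes were tested. With dexamethasone 4 were higher and 9 lower in wild type, and 3 and 10 in the knockout-labelled libraries, with medians of -0.17 and -0.31. The phosphatase gene Ptpn6, a brake on receptor signalling, fell by 0.98 and 1.1 (limma adjusted p = 0.0001 and 2.26e-05), Tyrobp, an adaptor for myeloid receptors, fell by 0.85 and 0.57, and the adaptor Grb2 fell by 0.55 and 0.60. Pik3r1, a regulatory subunit of phosphoinositide 3-kinase, rose by 0.79 and 0.84 (limma adjusted p = 5.55e-06 and 1.75e-06). The ligand gene Csf1 held 37.7, 38.7, 4.42 and 35.0 FPKM in wild-type vehicle libraries and 66.7, 46.4, 60.7 and 6.38 with dexamethasone. In knockout-labelled libraries it held 5.98, 2.59, 1.41 and 30.1 FPKM with vehicle and 1.69, 2.03, 11.7 and 13.5 with dexamethasone. Csf1 was thus low in the wild-type libraries that are low in Col1a1 and high in the knockout-labelled vehicle library that is high in it; it passed in no comparison (limma adjusted p = 0.0634 between genotypes with dexamethasone). Il34, the other ligand gene, was lower in the knockout-labelled libraries with dexamethasone, at 0.673 against 6.61 FPKM (limma adjusted p = 0.0231).

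Of 6 tested among 8 related growth factor receptors, dexamethasone raised 0 and lowered 3 in each genotype. Csf2ra, the ligand-binding chain of the GM-CSF receptor, fell by 1.17 and 0.70 (limma adjusted p = 0.00108 and 0.0205), and Csf3r, the G-CSF receptor, fell by 1.33 and 0.88 (limma adjusted p = 1.83e-05 and 0.000416). Csf1r, by contrast in direction, had the differences of 0.25 and 0.33 given above. Between genotypes with dexamethasone the stromal receptor genes Pdgfra and Pdgfrb were lower in the knockout-labelled libraries (-2.57 and -2.76, limma adjusted p = 0.0453 and 0.0294) and Csf2ra was higher (0.91, limma adjusted p = 0.0101). Pdgfra and Pdgfrb are among the stromal markers described above.

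Counts of these lists stand beside 11.9% higher and 18.2% lower of all genes with dexamethasone in wild type, and 15.0% and 24.1% in the knockout-labelled libraries. Of 4 tested other MAF genes, 3 were higher with dexamethasone in wild type and 2 in the knockout-labelled libraries, with 0 lower in either; Mafg, a small MAF protein gene without an activation domain, rose by 0.49 and 0.33. Among 5 tested other IRF genes, 1 was higher and 3 lower in each genotype: Irf1, an interferon-induced activator, fell from 42.5 to 16.2 and from 34.9 to 15.8 FPKM, Irf7 fell by 1.48 and 1.24, and Irf2, which opposes Irf1, rose by 0.40 and 0.54. Irf7, the master factor of type I interferon induction, was higher in the knockout-labelled libraries with either treatment (1.14 and 1.38, limma adjusted p = 0.0106 and 0.00113). Of 10 tested other ETS genes, 1 was higher and 2 lower in wild type, near those shares of all genes, and 1 and 4 in the knockout-labelled libraries, with Etv3 and Ets2 lower in both. Cebpg, a C/EBP protein without an activation domain, rose in the knockout-labelled libraries (0.61, limma adjusted p = 0.00532) and differed by 0.39 in wild type (limma adjusted p = 0.0667).

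Of 5 tested other adhesion receptor genes, the relatives nearest to Adgre1 gave unlike differences. Adgre4 (F4/80-like receptor) was low in wild type, at 0.704 FPKM with vehicle and 0.662 with dexamethasone, and stood at 2.05 and 4.78 FPKM in the knockout-labelled libraries (0.83 and 1.83 higher, limma adjusted p = 0.0362 and 8.4e-05). Adgre5, which encodes CD97, was lower in the knockout-labelled vehicle libraries (11.2 against 26.3 FPKM, limma adjusted p = 0.00693). Among 15 tested other macrophage markers, 3 were higher with dexamethasone in wild type and 9 lower, and 3 and 8 in the knockout-labelled libraries, with medians of -0.59 and -0.63. The efferocytosis receptor gene Mertk and the scavenger receptor gene Cd163 rose in both genotypes (1.57 and 1.83 in wild type, 2.02 and 2.2 in the knockout-labelled libraries), while Fcgr1, the high-affinity IgG receptor gene, fell from 54.9 to 7.32 and from 62.7 to 12.5 FPKM. Itgam, the CD11b gene, and Cd68, a lysosomal glycoprotein gene, fell with dexamethasone in both genotypes, Itgam by 0.88 and 0.71 and Cd68 by 0.60 and 0.57. Between genotypes 2 markers were higher and 0 lower with vehicle, against 3.37% and 1.3% of all genes. With dexamethasone 5 were higher and 0 lower, against 14.3% and 12.4%. Aif1 (0.64 and 1.59) and Marco (2.12 and 2.09) were higher with either treatment. Every list held 0 genes that passed the interaction, by limma. The part of stromal signal in the differences of these lists between genotypes was not tested.

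Across the 16 libraries the members did not move as one. Spi1 and Adgre1 were the pair most alike (Pearson r = 0.92 on log2 values, 0.70 after taking out the group means), Maf and Csf1r followed at 0.71, and Cebpd and Irf5 were the most opposed (-0.68). After taking out the group means, Spi1 and Irf5 had r = 0.92 and Cebpd and Maf 0.88. The 3 protein-coding genes most like Spi1 were Twf2 (0.979), Tgfb1 (0.975) and Adap1 (0.975), those most like Adgre1 were Rgs10 (0.981), Ikzf1 (0.981) and Arhgap4 (0.978), and those most like Csf1r were Zfp658 (0.94), Rmnd5b (0.931) and Specc1l (0.928). For Maf they were Pik3r1 (0.904), Adpgk (0.899) and Herpud1 (0.894), for Irf5 C1qtnf12 (0.934), Nit1 (0.933) and Cdc42se1 (0.906), and for Irf8 Usf1 (0.836), Higd2a (0.832) and Ifnar2 (0.806). For the C/EBP genes they were Pcnx (0.89), Osbpl1a (0.872) and Isoc2a (0.852) with Cebpa, Pnrc1 (0.896), Znrf1 (0.84) and Sntb2 (0.838) with Cebpb, and Isg20l2 (0.888), Maml1 (0.878) and Mc5r (0.867) with Cebpd. These coefficients are over 16 libraries that share 4 groups and a wide range of stromal signal, and they are descriptions.

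Some members share exon bases with a gene on the other strand, whose reads cannot be told apart without a stated strand setting. Tmem189, at up to 87.0 FPKM, shares 312 bases, or 20.7% of the exon length, with Cebpb. Spidr shares 15.0% with Cebpd at up to 2.86 FPKM, Hmgxb3 15.1% with Csf1r at up to 8.23 FPKM, and Tnpo3 14.1% with Irf5 at up to 5.43 FPKM. Spi1, Irf8 and Adgre1 share no exon bases. The RefSeq table of promoter windows (GRCm38.p6, 250 bases before to 50 after a start) held 5 windows of 4 members, Cebpa, Cebpb, Irf5 and 2 for Irf8. Both strands were searched for GTAAACA (FOXO), AGAACA (glucocorticoid receptor monomer motif), GAGGAAGT (PU.1), TTGCNNAA (C/EBP), TGCTGAC (MAF) and GAAANNGAA (IRF), which occur in 3.65%, 19.0%, 3.2%, 10.8%, 4.67% and 8.56% of the 32851 windows in the table. None of these letters was in the 5 windows.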

How the data were processed

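Each library came as FPKM that the authors deposited for 54532 Ensembl identifiers. The submitters' processing notes name TopHat2 2.0.12, Bowtie2 2.2.3, DESeq2 and HTSeq 0.6.1, and the builds mm10 and GRCm38; strand setting and annotation release: not given in the sources used here. Names and exon lengths came from GENCODE M21 (54495 identifiers).

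FPKM is not a count, so log2(FPKM + 1) was tested with limma 3.58.1 in R 4.3.3 (trend, 4 group means) over the 11654 genes that reached 1 FPKM in 4 or more of 16 libraries. The scale understates changes of low genes. P-values were two-sided, corrected over all genes of a comparison by the Benjamini-Hochberg method, with 5 comparisons and a threshold of 0.05. Reads were recovered from FPKM and exon length, and 97.8% to 98.1% of values under 200 reads were whole within 0.05. Among the members, Csf1r was recovered only approximately, since its exon length differs from the authors'. As an alternative, limma voom ran on the recovered reads, with their sum over all genes as library size. The part of that library size in the voom values was not tested. The procedure was tested on simulated data. Tables and figures used Python 3.11.15, pandas 2.3.3 and matplotlib 3.10.9.

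The members, the lists and the tests were chosen with earlier results of these data known. All 9 members are named; from each list the first 2 measured genes and up to 4 with the smallest adjusted p per comparison could be named, and for likeness the 3 highest Pearson r among protein-coding genes. The stromal covariate was the mean log2(FPKM + 1) of 10 markers.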

Additional observations from a re-analysis of the deposited data

Results flagged for a closer look

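Each member was looked at in each group, 36 sets of 4 libraries, for a library whose gap to its nearest neighbour was over 0.829 of the range of the set. Chance gives about 1 such set in 20, and 3 were found. Csf1r stood at 793 FPKM in wild-type dexamethasone replicate 4, against 662 to 678 FPKM in the other 3. Adgre1 stood at 472 FPKM in the same library, against 209.7 to 224 FPKM. Adgre1 stood at 1503 FPKM in knockout-labelled vehicle replicate 3, against 1189 to 1225 FPKM. The first library had 19.1 FPKM of Col1a1 where the others of its group had 159 to 356, and the last had 0.395 FPKM, the lowest of its group. Csf1r was highest in replicate 4 of every group. In wild-type vehicle and both knockout-labelled groups, that replicate had the highest Col1a1 of its group (174, 95.8 and 25.5 FPKM). The part of stromal signal in these values was not tested.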

How the results depend on the processing

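The 9 genes were tested again under 28 other settings. With dexamethasone in wild type the count of 4 members past the threshold (30.1% of all genes) stayed between 3 and 6. Of all genes, 11.6% passed with no filter on low values and 40.1% with library weights. The members behind that count were not always the same. Under 50 FPKM of Col1a1, 1 library against 1, Spi1 differed by -0.04 where it was -0.44 as reported. In the knockout-labelled libraries the count of 5 was 3 with no filter on low values (15.6% of all genes passed, 39.1% with the filter), and 3 to 5 when single libraries were left out. Between genotypes with vehicle the count of 1, where 4.68% of all genes passed, was 4 with library weights (41.5% of all genes), 2 with the stromal covariate (3.19%), 3 without the 3 libraries apart in Col1a1 (34.0%) and 0 with only libraries under 50 FPKM of Col1a1 (0.515%), and 1 to 2 when single libraries were left out. With dexamethasone the count of 4 (26.7% of all genes) was 1 with the stromal covariate, Adgre1 (8.32%), and 1 under 50 FPKM of Col1a1 (3.35%), which was Cebpb, lower at -0.69 and not among the 4, and 3 to 5 when single libraries were left out. The interaction count of 0 (0.129% of all genes) was 4 with library weights (11.9%), 1 with the stromal covariate (1.05%), 3 without the 3 libraries apart (6.22%), and 0 to 1 when single libraries were left out. One called value changed sign: Spi1 between genotypes with dexamethasone was -0.07 (limma adjusted p = 0.78) under 50 FPKM of Col1a1, where 9 libraries remain and each wild-type group is 1 library. Apart from the construction of that subset, the cause was not tested.

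Over all genes tested, 8 of 24 same-number correlations of deviations were over 0.1, with a median of -0.311. Between libraries of different number 35 of 72 were over 0.1, with a median of 0.045. Correlations over all genes cannot settle whether a single gene follows the replicate number. Csf1r was highest in replicate 4 and lowest in replicate 3 of every group. With a replicate block the counts were 5, 5, 1, 3 and 0 where they were 4, 5, 1, 4 and 0 without it. Csf1r with dexamethasone in wild type then passed (0.25, limma adjusted p = 0.02). In the knockout-labelled libraries Csf1r stood at 0.33 with the block (limma adjusted p = 0.0041, against 0.0473 without it). Spi1 between genotypes with dexamethasone did not pass with the block (0.35, limma adjusted p = 0.0711).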
